A study of Mus musculus with 12 samples.

Results

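miR-155, miR-146a and miR-146b are 3 microRNAs (miRNAs) that are switched on by NF-kB and by inflammatory signals, and they were 3 of the 577 miRNAs on the arrays. Their probes were found by name, as those whose listed miRNA was mmu-miR-155, mmu-miR-146a or mmu-miR-146b. The study followed the miRNAs of 4 mouse breast cancer cell lines that stand for successive steps of metastasis, using 12 one-colour Agilent mouse miRNA arrays on which the brightness of a spot measures how much labelled RNA bound a short probe. The lines 67NR, 168FARN and 4TO7 are labelled non-metastatic and 4T1 metastatic, with 3 arrays per line. All 4 lines are female, wild type and of Balb/C background, came from a breast cancer that arose spontaneously, are known as sister lines, and had no treatment named in the labels. Total RNA was taken with Trizol and 100 ng went on each array. The labels do not tell whether the repeats of a line were separate cultures, so a p-value here speaks only of how far these arrays spread, and that spread may be technical. Each step has 1 line, so the step and the line cannot be told apart.

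NF-kB is a family of transcription factors held in the cytoplasm by inhibitor proteins and released to the nucleus when a cell senses bacterial products, cytokines such as tumour necrosis factor or interleukin-1, or other stress. miR-155 is cut from a noncoding transcript that these signals raise, and its known targets include Socs1 and Inpp5d, brakes on cytokine and lipid signalling. miR-146a and miR-146b are known to target Irak1 and Traf6, adaptors that carry the signal from Toll-like and interleukin-1 receptors to NF-kB, so they form a negative feedback on the pathway, and both families have been studied in breast tumours for their part in growth and spread.

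The sequences show why miR-155 has to be read apart from the pair of miR-146 genes, and how little separates that pair. They are the mature 5p strands in RefSeq (build GRCm38.p6), found for each of the 3 names, in 5′ to 3′ direction, with the seed (bases 2 to 8, the stretch that pairs with targets) in capitals.
miR-155: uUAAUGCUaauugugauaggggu
miR-146a: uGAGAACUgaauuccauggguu
miR-146b: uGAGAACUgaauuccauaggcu
The seed of miR-155 was found in 1 mature mouse miRNA of the table, miR-155 itself, while miR-146a and miR-146b had the same seed and were the 2 miRNAs of the table that held it. Over their 22 bases the miR-146 strands were identical at 20, with the substitutions G18A and U21C from miR-146a to miR-146b, counted from 1 at the 5′ end. The genes lie apart. The brighter miR-155 probe targets chr16:84714393-84714410, that of miR-146a chr11:43187937-43187955 and that of miR-146b chr19:46417283-46417301, all in build mm9 as the array files give them. In RefSeq, Mir155 lies within the noncoding gene Mir155hg and Mir146b within the noncoding gene Gm36493, and no gene of the table overlaps the miR-146a gene, which is listed as Mir146.

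Each of the 3 miRNAs had 2 probes, each printed in 10 spots, and in each case the probe with the longer target was the brighter and was used. Its target was 18 bases for miR-155 and 19 for miR-146a and for miR-146b, and that of the dimmer probe was 1 base shorter. A probe was read on an array if the scanner software marked most of its spots as well above background. A level is log2 of the signal relative to the 75th percentile, on the same array, of the 170 probes read on every one of the 12 arrays. Levels below a floor of -5.58 were set to it and have no order. Levels are given ± the SD over 3 arrays and differences ± SE. Levels of different probes were not compared. Adjusted p-values are limma's (two-sided, Benjamini-Hochberg over all 224 tested miRNAs in each comparison). Where a line was not read, a fold is a lower bound. It was taken against the lowest level each array read or the array's own level without the floor, whichever was higher. On the 168FARN and 4T1 arrays that lowest level lay below the floor, so a bound can exceed the fold of the floored values. The p beside a bound belongs to the floored values and may be too small. The lines share 1 estimate of the spread, to which a line at the floor adds an SD of 0. The SE and p of a difference measured on both sides may then be too small as well. In a bulk extract, fewer cells holding a miRNA and less of it per cell cannot be told apart.

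The 67NR arrays stood apart from the others. Across the tested miRNAs, which are not independent replicates, Pearson's r was 0.993 to 1.000 within a line, 0.837 to 0.965 between 168FARN, 4TO7 and 4T1, and 0.539 to 0.636 between 67NR and any other line. They were also dimmer, with 75th percentiles of 358 to 460 signal units against 600 to 1213 on the other 9, and read 141 to 161 miRNAs against 147 to 191. The lowest level read was -5.08 to -4.64 on the 67NR arrays and -6.51 to -5.32 on the others, so a dim miRNA could be read less far down in 67NR. One slide held the 67NR arrays and 168FARN array 1, and the other 8 arrays were on another. No spot was saturated.

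miR-155 was highest in the metastatic line 4T1, lower in 168FARN, low in 4TO7 and not read in 67NR. Its unscaled signal on the 4T1 arrays was 239, 245 and 200, and on the 168FARN arrays 161, 130 and 97.0. On the 4TO7 arrays it was 21.9, 20.1 and 21.5, and on the 67NR arrays -3.16, -0.98 and -1.91, below the subtracted background. All 9 arrays outside 67NR were read, and no array of one line overlapped those of another. For a pair of lines, arrays did not overlap for 67.9% to 86.6% of tested miRNAs. After scaling, the level was -2.19 ± 0.03 in 4T1, -2.92 ± 0.10 in 168FARN and -4.89 ± 0.10 in 4TO7. The 168FARN signals ranged widely, but their scaled levels of -2.91, -2.83 and -3.03 lay close together.

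Every neighbouring pair of read lines in that order differed by more than the spread between arrays. 4T1 exceeded 168FARN by 0.74 ± 0.06, or 1.67-fold (adjusted p = 2.84e-07). 4T1 exceeded 4TO7 by 2.70 ± 0.06, or 6.52-fold (adjusted p = 1.54e-11). 4TO7 was 3.91-fold below 168FARN, a difference of -1.97 ± 0.06 (adjusted p = 3.84e-11). The sizes depend on the background correction and the probe: after the normexp correction, which adds an offset of 50, these 3 differences were 0.51, 1.11 and -0.59, and with the dimmer probe 1.15, 1.22 and -0.070. Against 67NR, miR-155 was at least 6.22-fold higher in 4T1 (adjusted p = 1.51e-13) and at least 3.73-fold higher in 168FARN (adjusted p = 1.01e-12), bounds that hold for the brighter probe without normexp. After normexp these differences were 1.05 and 0.53, and with the dimmer probe 1.22 and 0.070 (log2). Between 4TO7 and 67NR no bound above 1 could be given, although their unscaled signals did not overlap. The floored levels differed by 0.69 (adjusted p = 3.47e-07). The 4TO7 level of -4.89 lay within the range of -5.08 to -4.64 that was the lowest the 67NR arrays read. With each array floored at its own lowest read level the difference was -0.068, after normexp -0.060 and with the floor doubled 0. It was 1.69 with the floor halved and 3.36 with the scanner software's total signal per miRNA in place of the brighter probe.

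**Figure D1:**
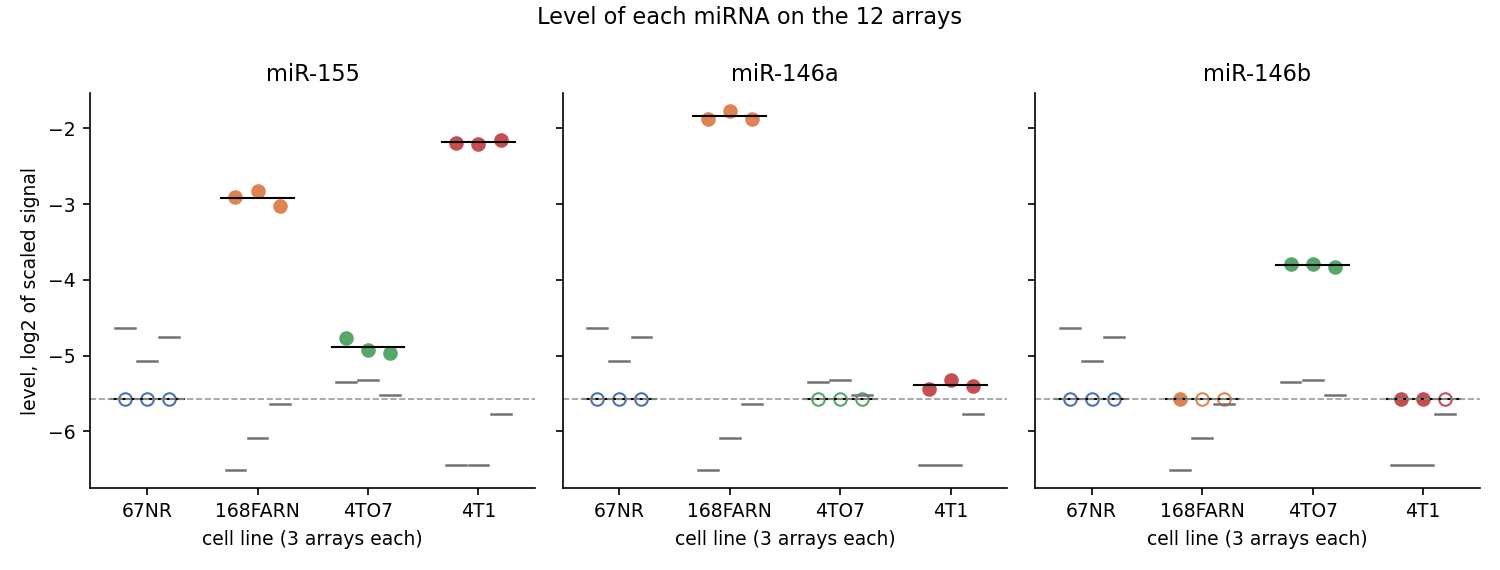
Level (log2 of scaled signal) of miR-155, miR-146a and miR-146b on the 12 arrays, by cell line. Filled points were well above background and open ones were not, black lines are means of 3 arrays, grey ticks mark the lowest level each array read and the dashed line is the floor at -5.58. miR-155 was highest in 4T1 (-2.19), miR-146a in 168FARN (-1.84) and miR-146b in 4TO7 (-3.80), and 67NR read none of them.

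miR-146a followed another order: it was high in 168FARN, dim in 4T1 and not read in 4TO7 or 67NR. The 168FARN arrays gave 331, 271 and 214 signal units and the 4T1 arrays 25.1, 28.4 and 21.1. The signal was 2.61, 3.35 and 1.01 on the 4TO7 arrays and -2.97, 0.04 and -1.36 on the 67NR arrays. The 168FARN arrays thus lay above all 9 others, and the 4T1 arrays above the 6 of 4TO7 and 67NR. Between 168FARN and another line, arrays did not overlap for 73.2% to 86.6% of tested miRNAs. The share for 168FARN against all 9 others was not counted. The level was -1.84 ± 0.06 in 168FARN and -5.39 ± 0.06 in 4T1, the latter only 0.19 above the floor.

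The line with the most miR-146a was not the one with the most miR-155. From 168FARN to 4T1, miR-146a was 11.7-fold lower, a difference of -3.54 ± 0.04 (adjusted p = 1.26e-14), while miR-155 was 1.67-fold higher. The miR-146a difference was -2.03 after the normexp correction and -1.63 with the dimmer probe. miR-146a was at least 7.88-fold higher in 168FARN than in 67NR (adjusted p = 2.24e-15) and at least 11.7-fold lower in 4TO7 than in 168FARN (adjusted p = 6.72e-15). After normexp these were 1.31 and -1.74, and with the dimmer probe 1.63 and -1.63 (log2). 4T1 passed against 4TO7 with a bound of only 1.01-fold (adjusted p = 0.000952), and against 67NR, where the floored difference was 0.19 (adjusted p = 0.000577), no bound above 1 could be given. The size of these 2 floored differences is the distance of 4T1 from the floor, and it depended on the setting. With the floor doubled both were 0, and after the normexp background correction they were -0.28 (4TO7) and -0.71 (67NR). With the floor halved both were 1.19, and with the scanner software's total signal per miRNA they were 2.30 (4TO7) and 2.92 (67NR). 4TO7 and 67NR were both unread and were not compared.

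miR-146b, which shares the seed of miR-146a, was brightest in 4TO7, a line without a readable miR-146a signal. Its signal was 43.3, 44.5 and 47.1 on the 4TO7 arrays and 16.7, 13.1 and 10.9 on those of 168FARN. It was 16.3, 17.3 and 12.01 on the 4T1 arrays and 6.09, 4.61 and 4.83 on those of 67NR. The 4TO7 arrays lay above all 9 others, while 168FARN and 4T1 overlapped. Between 4TO7 and another line, arrays did not overlap for 67.9% to 80.4% of tested miRNAs. The share for 4TO7 against all 9 others was not counted. The 4TO7 arrays were all read, against 1 of 3 in 168FARN, 2 of 3 in 4T1 and 0 of 3 in 67NR, and outside 4TO7 every array was at the floor.

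The level of miR-146b in 4TO7 was -3.80 ± 0.02. That was at least 3.42-fold above 168FARN (adjusted p = 3.37e-14), at least 3.42-fold above 4T1 (adjusted p = 2.02e-13) and at least 2.03-fold above 67NR (adjusted p = 1.68e-14). After the normexp correction the difference was 1.06 for 4TO7 minus 168FARN, -1.13 for 4T1 minus 4TO7 and 0.13 for 4TO7 minus 67NR (adjusted p = 0.317 for the last). The other 3 lines could not be ordered: without a floor their levels were -6.17 ± 0.02 in 168FARN, -6.11 ± 0.09 in 4T1 and -6.35 ± 0.22 in 67NR, all below the floor.

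With 20 of 22 bases in common, the miR-146a and miR-146b probes could each bind the other strand, and position 18 falls inside any target of 19 bases. In 168FARN, where miR-146a gave 214 to 331 signal units, the miR-146b probe stayed at an unfloored level of -6.17, against -6.11 in 4T1, where miR-146a gave 21.1 to 28.4. In 4TO7, where miR-146b gave 43.3 to 47.1 signal units, the miR-146a probe gave 1.01 to 3.35 and was not read. How much of the dim signals came from the other strand was not tested. The partner strand miR-146b*, cut from the same hairpin, had 4 probes and was not read on any of the 12 arrays.

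**Figure D2:**
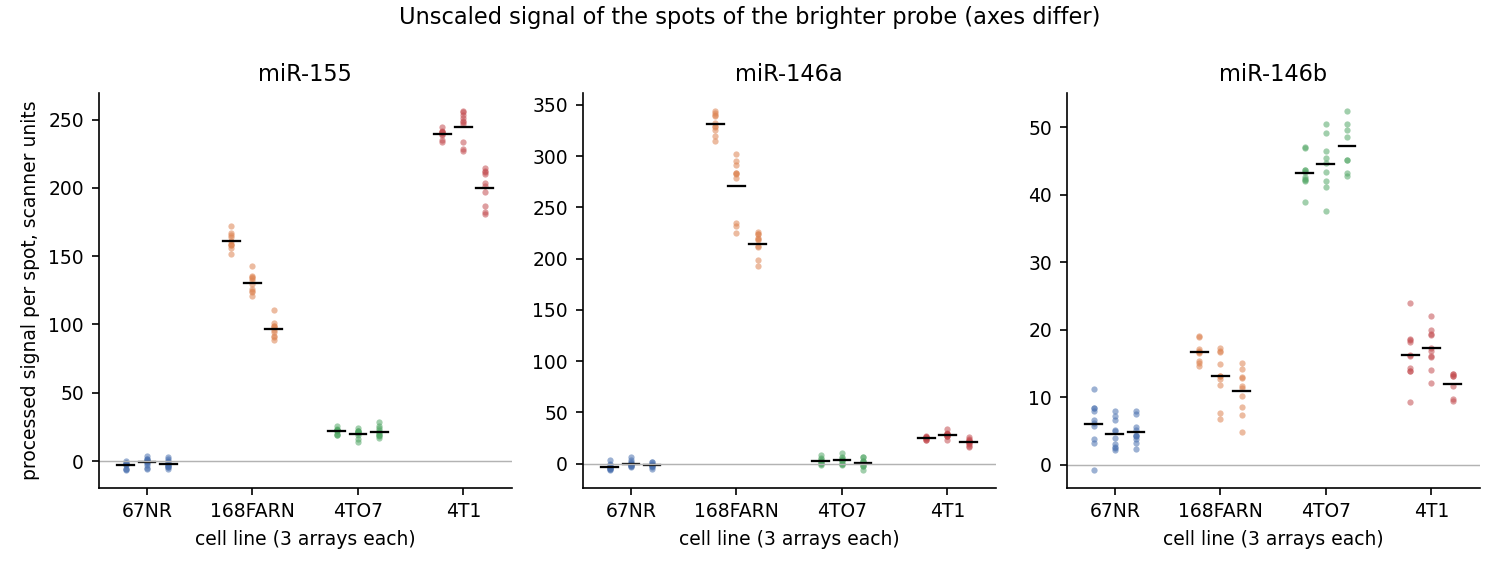
Unscaled processed signal (scanner units) of each kept spot of the brighter probe, by array within each cell line, with the mean of an array as a black bar. The vertical axes differ between miRNAs, and the spots of 4T1 for miR-155, of 168FARN for miR-146a and of 4TO7 for miR-146b lie apart from those of other lines.

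Spots of one probe repeated closely where the signal was bright. For miR-155 the coefficient of variation (CV) between spots of an array averaged 4.09% in 4T1 and 5.06% in 168FARN, against 14.1% in 4TO7. For miR-146a it was 6.28% in 168FARN and 9.86% in 4T1, and for miR-146b 7.37% in 4TO7. Of the 30 spots of a line 27 to 30 were kept.

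The dimmer probes showed the bright lines in the same place. The dimmer miR-155 probe gave 50.9 ± 7.46 signal units in 4T1 and 21.4 ± 5.50 in 168FARN (read on 2 of 3 arrays), and in 4TO7 it gave 2.09 ± 0.30 and was not read. On that probe the scaled level of 4T1 was 1.15 above 168FARN, 168FARN and 4TO7 differed by 0.070 (adjusted p = 0.0674), and so did 168FARN and 67NR (adjusted p = 0.0576). The 4T1 arrays were thus above the rest with either miR-155 probe, while the lower lines were near the limit of the dimmer one. The dimmer miR-146a probe gave 63.1 ± 11.6 in 168FARN and 4.64 ± 1.77 in 4T1, where it was not read. The dimmer miR-146b probe was not read in any line and gave 7.24 ± 0.73 in 4TO7 against 0.87 to 2.47 in the others.

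The study's main question set the metastatic line against the 3 non-metastatic ones. Against their mean, miR-155 was higher in 4T1 by 2.28 ± 0.05 with 67NR at the floor, which is at least 4.07-fold (adjusted p = 2.81e-12), against a difference of 0.89 after normexp and 1.198 with the dimmer probe, and its 3 arrays lay above the 9 others, as they lay to one side of them for 17.4% of the tested miRNAs. For miR-146a no fold is given, since 4TO7 and 67NR were not read and the size depends on the floor. In floored levels the difference was -1.06 ± 0.03 (adjusted p = 4.52e-11), with the floor halved -0.39 and with it doubled -0.91. The 4T1 level lay above the floored levels of 4TO7 and 67NR, so 168FARN alone set that direction. With the scanner software's total signal per miRNA in place of the brighter probe the miR-146a difference was 0.54 (adjusted p = 0.0129). The floored difference of miR-146b was -0.59 ± 0.02 (adjusted p = 9.63e-11), also without a fold. It was set by 4TO7 alone, since 4T1, 168FARN and 67NR were all at the floor. In floored levels all 3 members thus passed in this comparison, in which 87.5% of the tested miRNAs did.

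Passing the test was common in every comparison, so the counts of members are read against the share of all miRNAs that passed. From 4T1 to 67NR miR-155 and miR-146a passed, 2 of 3, beside 79.5% of all tested miRNAs. From 4T1 to 168FARN the same 2 of 3 passed in opposite directions, beside 74.1%. From 4T1 to 4TO7 all 3 passed, with miR-146b lower in 4T1, beside 60.7%. The 3 members never all pointed the same way among those comparisons of 4T1 that all 3 passed. Between the non-metastatic lines, 2 of 3 passed from 168FARN to 67NR (miR-155 and miR-146a, beside 87.9%), 2 of 3 from 4TO7 to 67NR (miR-155 and miR-146b, beside 79.9%) and 3 of 3 from 4TO7 to 168FARN (beside 74.6%). The median difference over all tested miRNAs was -0.34 for 4T1 against the mean and -0.12 to 0 between 2 lines. The arrays of both lines did not overlap for 81.2% of tested miRNAs between 4T1 and 67NR, 76.8% between 4T1 and 168FARN, 67.9% between 4T1 and 4TO7, 86.6% between 168FARN and 67NR, 80.4% between 4TO7 and 67NR and 73.2% between 4TO7 and 168FARN. Comparisons that share 4T1 or 67NR share its arrays.

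**Figure D3:**
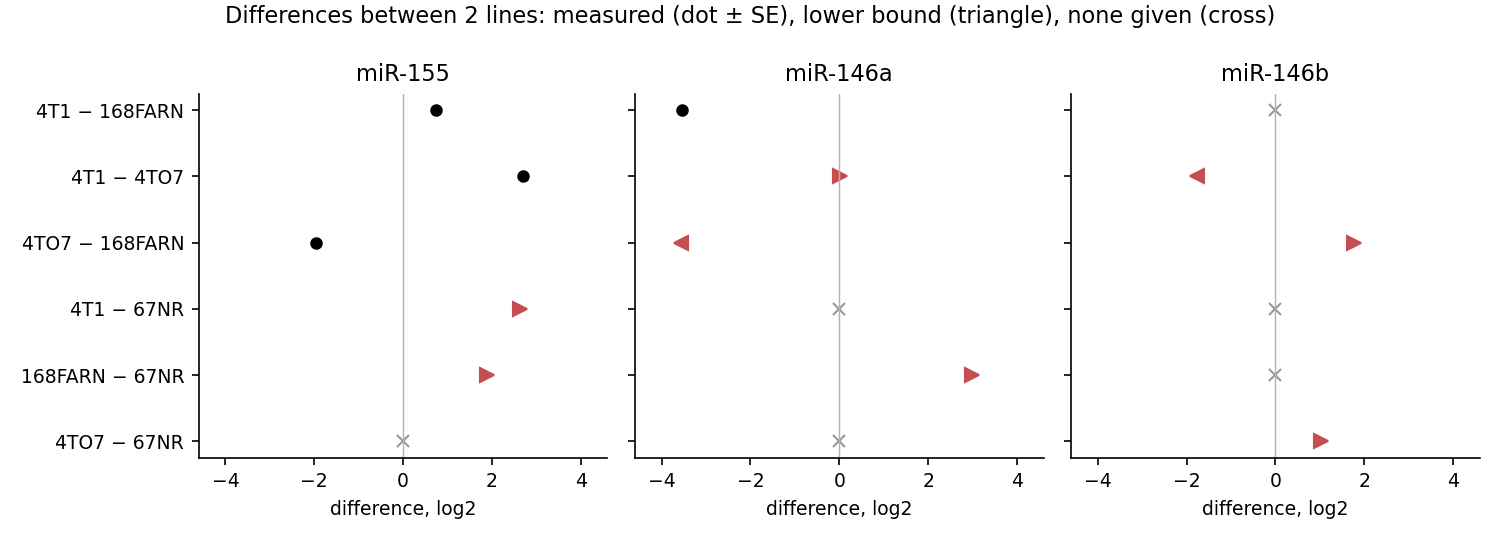
Difference between 2 lines (log2, first line minus second) for miR-155, miR-146a and miR-146b. Dots with SE bars (narrower than the dots) are measured on both sides, red triangles are lower bounds where a line was not read, and grey crosses at 0 mark pairs for which no fold is given. miR-155 and miR-146a point in opposite directions for 4T1 minus 168FARN (0.74 and -3.54).

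All 4T1 and 4TO7 arrays were on the slide of 8 arrays, so their differences there are those of the main fit. The other differences on that slide leave out only 168FARN array 1. These values therefore say little on the effect of the slide. On the slide of 8 arrays, miR-155 differed by 0.74 from 168FARN to 4T1 (2 against 3 arrays) and by 2.70 from 4TO7 to 4T1, and miR-146a by -3.56 and 0.19. miR-146b was 1.77 higher in 4TO7 than in 168FARN there. On the other slide, the single 168FARN array exceeded the 3 of 67NR by 2.67 for miR-155 and 3.71 for miR-146a in floored levels. 67NR shared no slide with 4TO7 or 4T1, so those pairs have no value within a slide, and with slide as a term 4T1 exceeded 67NR in miR-146a by 0.15 (adjusted p = 0.0760).

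The members did not share a pattern with each other. Over the 12 arrays, which fall into 4 lines of 3, Pearson's r of the floored levels was 0.447 for miR-155 and miR-146a, -0.414 for miR-155 and miR-146b, and -0.356 for miR-146a and miR-146b. These values and those that follow are descriptions over 12 points that share lines, scale and floor.

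The miRNAs most like miR-155 over the 12 arrays were miR-362-3p (r = 0.970), miR-149 (0.967), miR-500 (0.958), miR-21* (0.938) and miR-674 (0.928). miR-362-3p had levels of -3.61 ± 0.06 in 4T1, -3.90 ± 0.08 in 168FARN and -4.73 ± 0.12 in 4TO7 and was not read in 67NR, which is the order of miR-155. miR-149 was read in all 4 lines, from -3.67 ± 0.21 in 67NR to -2.37 ± 0.13 in 4T1. miR-21*, the partner strand of miR-21, was also unread in 67NR and highest in 4T1, at -3.41 ± 0.05.

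miR-146a was matched most closely by miR-470, miR-743a, miR-465c-3p, miR-883a-3p and miR-881, each with an r of 0.999. All 5 were read on the 3 arrays of 168FARN and on no array of the other 3 lines. miR-465c-3p, for one, gave 393 ± 90.8 signal units in 168FARN. These correlations rest on the contrast of 168FARN with values at the floor, and miR-146a differed from the 5 by being read in 4T1.

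The miRNAs most like miR-146b were miR-152 (r = 0.991), miR-297c (0.989), miR-449a (0.964), miR-297b-3p (0.956) and miR-466c-5p (0.950). Each was highest in 4TO7, at levels from -4.80 ± 0.12 for miR-297c to -4.10 ± 0.11 for miR-466c-5p. miR-152 and miR-449a were also read on the 3 arrays of 168FARN, at -5.46 ± 0.03 and -5.33 ± 0.18, and miR-466c-5p on those of 4T1, at -5.13 ± 0.01. In 4T1, miR-297c and miR-297b-3p were read on 3 of 3 arrays and miR-449a on 2 of 3, with miR-297c and miR-449a at the floor on all of them and miR-297b-3p on 2.

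Other miRNAs reported as raised by NF-kB or by inflammatory signals formed a list of 15, of which 13 were on the arrays and 10 were tested. The partner strands miR-155* and miR-146a* were not among the miRNAs listed on the arrays, and miR-146b*, miR-147 and miR-223 were not read in any line. The list holds miR-9 and miR-21 each with its partner strand, so its members are not all independent in the counts below. From 67NR to 4T1, 7 of the 10 were higher, 2 lower and 1 did not pass (median 1.00, against -0.05 over all tested miRNAs, of which 32.1% were higher and 47.3% lower). From 168FARN to 4T1, 5 were higher, 4 lower and 1 did not pass (median 0.13, against 0, with 34.4% of all higher and 39.7% lower). Against 168FARN the list thus split almost evenly. From 4TO7 to 4T1, 5 were higher, 1 lower and 4 did not pass (median 0.30, against 0, with 25% of all higher and 35.7% lower). Against the mean of the 3 lines 5 were higher, 2 lower and 3 did not pass (median 0.29, against -0.34, with 28.1% of all higher and 59.4% lower). The list therefore did not move as one in any of the 4 comparisons.

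A second list held 8 miRNAs reported to repress genes of the pathway, of which 7 were on the arrays and tested. From 67NR to 4T1, 2 were higher, 4 lower and 1 did not pass (median -1.71, against -0.05 over all tested miRNAs, of which 32.1% were higher and 47.3% lower). From 168FARN to 4T1, 2 were higher and 5 lower (median -0.17, against 0, with 34.4% and 39.7% of all). From 4TO7 to 4T1, 2 were higher, 2 lower and 3 did not pass (median -0.01, against 0, with 25% and 35.7%). Against the mean 2 were higher and 5 lower (median -0.63, against -0.34, with 28.1% and 59.4%). Not all of this list would restrain NF-kB: miR-30e* is known to target the NF-kB inhibitor IkBa, and let-7a the cytokine interleukin-6.

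Up to 4 listed miRNAs per comparison are described, in order of adjusted p. miR-132, a miRNA of neurons and of immune cells, was read in 4T1 (154 ± 13.7 signal units) and 67NR (26.7 ± 2.89) and in neither of the other lines. It was at least 10.02-fold higher in 4T1 than in 168FARN (adjusted p = 8.07e-14), at least 6.25-fold higher than in 4TO7 (adjusted p = 3.77e-13) and at least 5.27-fold higher than the mean (adjusted p = 1.45e-13). From 67NR to 4T1, miR-31, reported to target the NF-kB-inducing kinase Map3k14, was higher by 3.57 ± 0.03 (adjusted p = 1.58e-15) and miR-21 by 4.11 ± 0.06 (adjusted p = 6.70e-14), and miR-21* was at least 2.67-fold higher (adjusted p = 5.38e-13). miR-15a, reported to target the kinase subunit Chuk, was lower, at -1.94 ± 0.04 (adjusted p = 3.06e-13). Against the mean of the 3 lines miR-31 was higher by 1.198 ± 0.03 (adjusted p = 7.22e-12) and miR-21 by 1.52 ± 0.05 (adjusted p = 1.30e-10), and miR-21* was at least 1.83-fold higher (adjusted p = 8.44e-11).

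From 168FARN to 4T1 the listed miRNAs went both ways. miR-199a-5p, reported to target Ikbkb, another subunit of that kinase, was read only in 168FARN among the 4 lines and was at least 9.26-fold lower in 4T1 (adjusted p = 7.48e-14). miR-125a-5p of the induced list was also lower in 4T1, at -1.13 ± 0.07 (adjusted p = 2.81e-08), while miR-301a of the same list was higher by 0.96 ± 0.05 (adjusted p = 3.47e-09). From 4TO7 to 4T1, miR-21* was higher by 0.98 ± 0.04 (adjusted p = 4.14e-09), miR-301a by 0.75 ± 0.05 (adjusted p = 6.96e-08) and miR-16, reported to target Chuk as miR-15a does, by 0.36 ± 0.05 (adjusted p = 3.88e-05).

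**Figure D4:**
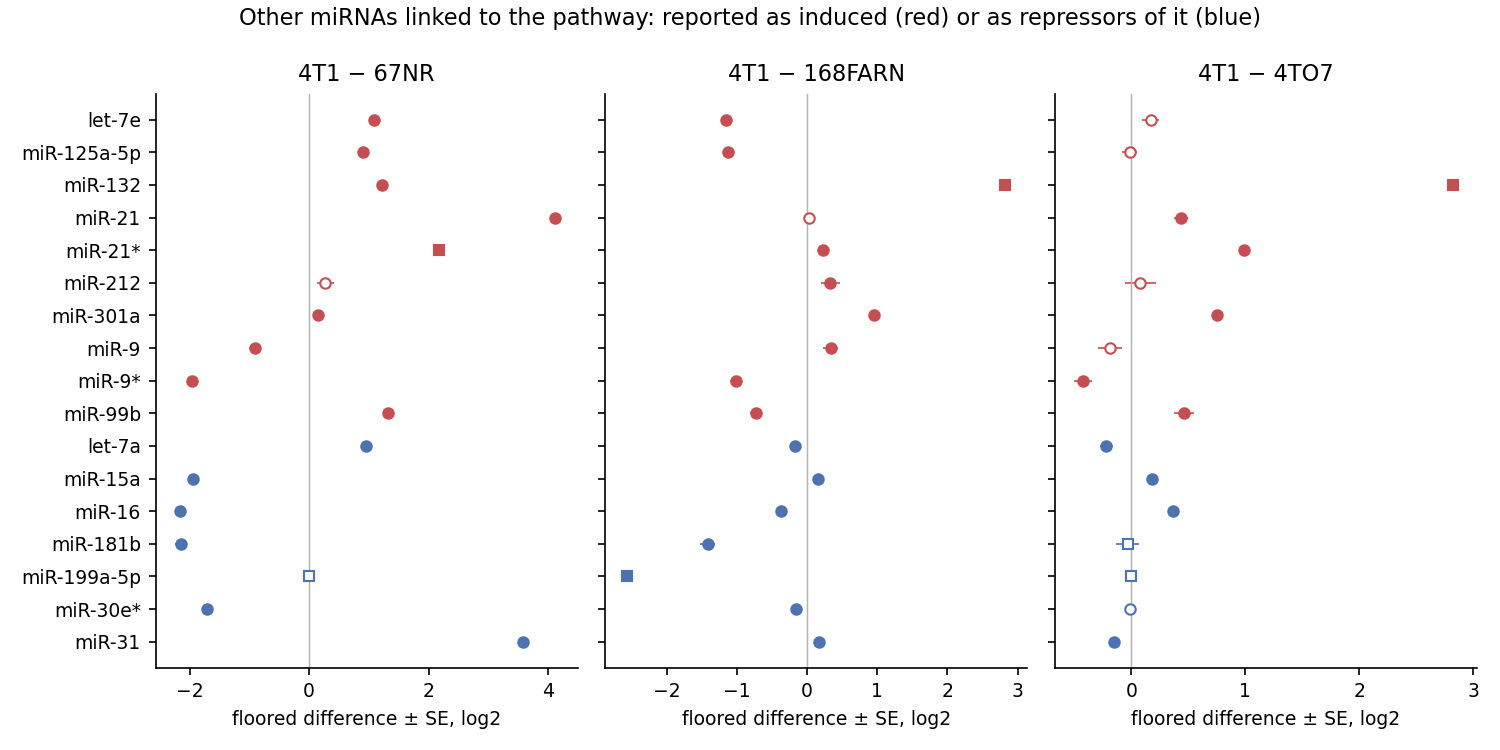
Floored difference (log2 ± SE) of the 17 tested miRNAs of both lists for 4T1 minus 67NR, 4T1 minus 168FARN and 4T1 minus 4TO7, in red for those reported as induced and in blue for those reported to repress pathway genes. Circles were read in both lines, squares have a line that was not read, and open symbols did not pass. Both colours lie on both sides of 0 in each panel.

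Between the non-metastatic lines the induced list gave 5 higher and 4 lower from 67NR to 168FARN (median 0.94, against -0.06 over all tested miRNAs) and from 67NR to 4TO7 (median 0.53, against -0.12), and 2 higher and 6 lower from 168FARN to 4TO7 (median -0.50, against 0). The repressor list gave 3 higher and 4 lower (median -0.73), 2 higher and 4 lower (median -1.70) and 1 higher and 4 lower (median -0.15) in the same comparisons. Of all tested miRNAs, 40.2% were higher and 47.8% lower from 67NR to 168FARN, 31.7% and 48.2% from 67NR to 4TO7, and 35.3% and 39.3% from 168FARN to 4TO7. Compared with 67NR, miR-31 was higher by 3.40 ± 0.03 in 168FARN (adjusted p = 2.21e-15) and by 3.73 ± 0.03 in 4TO7 (adjusted p = 8.66e-16), and miR-21 by 4.08 ± 0.06 (adjusted p = 5.02e-14) and 3.68 ± 0.06 (adjusted p = 1.36e-13). miR-15a was lower than in 67NR in both, at -2.10 ± 0.04 (adjusted p = 1.21e-13) and -2.12 ± 0.04 (adjusted p = 1.36e-13). miR-199a-5p was at least 3.52-fold higher in 168FARN than in 67NR (adjusted p = 2.52e-14), and miR-16 was lower in 4TO7 than in 67NR, at -2.53 ± 0.05 (adjusted p = 2.82e-13). From 168FARN to 4TO7, where miR-155 and miR-146a were both lower, miR-199a-5p was at least 5.24-fold lower (adjusted p = 5.95e-14). In that comparison miR-21* differed by -0.76 ± 0.04 (adjusted p = 1.68e-08), let-7e by -1.32 ± 0.08 (adjusted p = 2.76e-08) and miR-125a-5p by -1.11 ± 0.07 (adjusted p = 3.27e-08).

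miR-155 and miR-146a are abundant in blood cells, so markers of other cell types were read beside them. Of 6 blood cell miRNAs, miR-142-3p was read, on the 3 arrays of 168FARN, the line with the most miR-146a, at 37.8 ± 9.27 signal units. The others of the list, miR-142-5p, miR-150, miR-144, miR-451 and miR-223, were not read on any of the 12 arrays. The summed signal of the 6 was 44.4 to 61.5 in 168FARN, 13.9 to 18.2 in 67NR, 14.9 to 19.9 in 4TO7 and 10.6 to 17.8 in 4T1. In 4T1, 4TO7 and 67NR no blood marker was read and the sums overlapped. The part of blood cells in the miR-155 and miR-146a signals was not tested.

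Of the 2 endothelial miRNAs, miR-126-3p was read in 67NR, 4TO7 and 4T1 and not in 168FARN, and their summed signal was 101 to 130 in 67NR, 40.7 to 52.1 in 4T1, 23.4 to 29.9 in 4TO7 and 2.67 to 5.77 in 168FARN. These sums were not scaled between arrays. After scaling, miR-126-3p was at -1.96 ± 0.05 in 67NR, -4.64 ± 0.05 in 4T1 and -4.74 ± 0.13 in 4TO7. The difference of 0.10 ± 0.06 between 4T1 and 4TO7 did not pass (adjusted p = 0.155). The part of endothelial cells in the signals of the 3 members was not tested. Of 7 epithelial miRNAs, none was read on all arrays of a line, and miR-200c and miR-141 were each read on 1 of 3 arrays of 67NR, so the miRNAs that mark epithelial cells were at or near background in all 4 lines.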

How the data were processed

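The spot intensity values deposited for 12 arrays are the authors' processed signals from Feature Extraction 10.2.1.3, with a spatially detrended background subtracted and no scaling between arrays, per the file headers. The series' table of values is identical to them (largest difference 0, medians 1.20 to 1.97). Here, control spots and 284 to 508 outlier spots per array were left out, spots of a probe averaged, arrays scaled, floored at 0.0209 (log2 -5.58) and the brighter of the probes kept. The floor is the lowest value read on an array, taken as the median of the 12 arrays. Of 577 miRNAs, the 224 read on all 3 arrays of at least 1 line were tested with limma 3.58.1 (R 4.3.3, data.table, version 1.17.8), fitting 4 lines to 12 arrays with 8 residual degrees of freedom, and called at an adjusted p below 0.05 in each of 7 comparisons. The number of arrays limits the precision; the median SE was 0.0528 between 2 lines and 0.0431 against the mean. A line read on some arrays but at the floor on all was taken at the floor for bounds. Named miRNAs were the members, up to 4 of both lists per comparison by adjusted p, cell type markers, and the 5 most correlated with each member. Members, lists, rules and alternatives were chosen with earlier results of these data known. The fit was tested on simulated data. Alternatives were other scalings, background corrections, probe summaries, filters, floors, a slide term, a replicate block, other sets of arrays and a trended robust variance. Gene names and sequences come from RefSeq tables (GRCm38.p6), whose coordinates were not mixed with those of mm9.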

Additional observations from a re-analysis of the deposited data

Results flagged for a closer look

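Among the control probes, which enter no comparison above, the 4 probes named hur_5 had a mean signal of 194 over the 67NR arrays (180 to 207 per array), against 1.25 to 6.36 on the other 9. 168FARN array 1, on the same slide as the 67NR arrays, gave 1.25. What these probes target is not given in the sources used here, so what their signal says of the 67NR arrays, on which none of miR-155, miR-146a and miR-146b was read, is not known.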

How the results depend on the processing

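Over 28 other settings, 17 differences of the 3 miRNAs kept, in 446 cases, their direction and their side of the threshold; in 14 they no longer passed, 9 of them at a difference of 0, and in 6 they reversed. Leaving out each array in turn changed no call. For 4T1 minus 168FARN, miR-155 ranged from 0.69 to 0.78 and miR-146a from -3.58 to -3.51. Many of the cases could not change direction. Leaving out an array at the floor or outside a comparison leaves the difference as it was, and so does changing only the variance estimate. The calls that changed are these. For miR-155 in 4TO7 minus 67NR the difference was -0.060 after the normexp correction, -0.068 with each array floored at its own lowest read level (chosen after seeing the data) and 0 with the mean of all probes, the dimmer probe or the floor doubled. With the dimmer probe miR-155 gave 0.070 for 168FARN minus 67NR and -0.070 for 4TO7 minus 168FARN. For miR-146a, 4T1 minus the mean was 0.54 with the total signal per miRNA. miR-146a in 4T1 minus 67NR was -0.71 after normexp, -0.57 with each array's own floor, 0.15 with slide as a term, and 0 with the mean of all probes, the dimmer probe or the floor doubled; in 4T1 minus 4TO7 it was -0.28, and 0.0096 with each array's own floor, and 0 under the same 3 settings. miR-146b in 4TO7 minus 67NR was 0.13 after normexp. With each array's own floor, a miRNA not read on a 67NR array takes that array's lowest read level, -5.08 to -4.64, in place of its signal. Differences from 67NR under that setting are therefore not measures of its signal. The cause of the changes listed was not tested.

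The repeat numbers in the labels did not pair the arrays: deviations of same-numbered arrays correlated at -0.80 to 0.56, over 0.1 in 6 of 18 pairs, and 1 of 12 arrays correlated best with its own number. With the replicate block miR-155 in 4T1 minus 168FARN was 0.74 (adjusted p = 2.73e-06), no call of the members changed, and 163 in place of 167 miRNAs were called for 4TO7 minus 168FARN.

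With only the miRNAs read on all 12 arrays tested, no member remained, and 82, 87, 78, 70, 91, 86 and 75 miRNAs were called in place of 196, 178, 166, 136, 197, 179 and 167 (4T1 minus the mean, 67NR, 168FARN and 4TO7, 168FARN minus 67NR, 4TO7 minus 67NR and 4TO7 minus 168FARN), since fewer were tested. Other scalings moved the median difference over all tested miRNAs by 0 to 0.29 (all probes), -0.50 to 0.62 (none) and 0 to 0.20 (quantile), and no called difference of a member, taken relative to that median, changed sign. The dimmer miR-146b probe was not read in any line, so its differences were not tested.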
